A study of Mus musculus with 5 samples.

Results

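Aquaporins are membrane channels for water, and some of them also pass glycerol. Cftr, the gene mutated in cystic fibrosis, encodes a chloride and bicarbonate channel of epithelial cells that is opened by cAMP signalling. In the oviduct, water follows the ions that epithelial cells move into the lumen, and the fluid so formed carries gametes and embryos. The rows of Aqp1, Aqp3, Aqp4, Aqp5, Aqp8, Aqp9, Aqp11 and Cftr were taken by name from a table of 23857 genes, and all 8 were listed.

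RNA was measured in 5 bulk libraries, each from the sorted YFP-positive stromal cells of the fallopian tubes (oviducts) of 1 young adult female mouse. The 2 control mice, numbered 2 and 3, had the genotype Pdgfra-Cre;R26Y and are labelled wild-type. The 3 experimental mice, numbered 1 to 3, had floxed Esr1 on both alleles as well (Esr1(fl/fl)), so the recombinase and the reporter were present in both groups. Pdgfra-Cre acts where the promoter of Pdgfra, a mesenchymal gene, is or was active, and R26Y then marks those cells and their descendants with YFP. The comparison asks whether these genes differ when Esr1, the gene of estrogen receptor alpha, is deleted in stromal cells.

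Esr1 was at 83.3 and 77.6 TPM (transcripts scaled by length and to an equal total per library) in control mice 2 and 3. Mice 1, 2 and 3 of the group labelled knockout had 28.9, 85.0 and 170 TPM. The transcript was thus below both controls in knockout mouse 1 alone, and "knockout" refers below to the label. TPM per gene cannot show whether the floxed part of Esr1 was deleted, and deletion was not tested. Knockout mouse 1 also stood apart on the second principal component, at -53.9 against 6.13 to 18.7 in the other 4 libraries. On the first component knockout mouse 3 had the highest value, 65.2 against -44.4 to 25.6 in the other 4. Knockout mouse 3 also had the fewest genes with at least 1 TPM, 15841 against 17148 to 19432. The estimated depth of knockout mouse 1 was the lowest, 48.4% of that of control mouse 2, and the other libraries lay at 66.6% to 82.8%. The stromal markers were abundant in all 5 libraries. The 8 of them, led by Dcn, summed to 22390 and 18109 TPM in the controls. In knockout mice 1, 2 and 3 the sums were 15134.5, 11463 and 13357 TPM, all below both controls. Epithelial markers were present as well: the 11 of them, led by the oviductal glycoprotein gene Ovgp1, summed to 3019 and 3304 TPM in the controls, against 2134, 12009 and 13183 TPM in knockout mice 1, 2 and 3.

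Sequence upstream of the gene start is shown for the most abundant member, Aqp1, and for Cftr, because these genes were ordered differently over the libraries. Both stretches are the 250 bases before the RefSeq start, from RefSeq on GRCm38.p6, written 5′ to 3′ on the strand of the gene. The Aqp1 stretch is chr6:55336049-55336298 and the Cftr stretch is chr6:18170437-18170686, both on the plus strand. For Aqp5 only the 25 bases around a match to GGTCA, the core that is repeated in an estrogen response element, are shown in chr15:99590928-99590952 on the plus strand. The match is in capitals and begins 90 bases before the RefSeq start of Aqp5, in bases that GENCODE places in an Aqp5 exon.
Aqp1: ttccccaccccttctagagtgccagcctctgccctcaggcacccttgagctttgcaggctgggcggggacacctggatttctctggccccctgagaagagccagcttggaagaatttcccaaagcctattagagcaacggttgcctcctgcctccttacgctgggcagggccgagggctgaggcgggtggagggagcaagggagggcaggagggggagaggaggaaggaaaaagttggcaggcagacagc
Cftr: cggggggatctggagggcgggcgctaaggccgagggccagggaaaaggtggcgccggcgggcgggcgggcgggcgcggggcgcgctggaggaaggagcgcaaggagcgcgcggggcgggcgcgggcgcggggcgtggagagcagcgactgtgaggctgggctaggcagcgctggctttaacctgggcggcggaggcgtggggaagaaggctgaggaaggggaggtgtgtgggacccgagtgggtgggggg
Aqp5: ctgccgcgtgGGTCAcgtggcccgg
The motifs searched on both strands were the full estrogen response element (GGTCA, any 3 bases, TGACC), its core GGTCA, which the full element contains, and the cAMP response element TGACGTCA. The Aqp1 and Cftr stretches held none of them, so they carry no capitals. The full element was found in 0.0639% of 32851 RefSeq promoters of the same length, the core in 35.2% and the cAMP element in 1.55%. Of the 7 members with a promoter sequence, none held the full element, and Aqp5, Aqp11 and Aqp9 (in 1 of its promoters) held the core. A match describes these letters only.

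The members spanned a wide range of levels. TPM is scaled by transcript length, so levels can be compared between genes. Aqp1 was highest, at 57.7 to 155 TPM over the 5 libraries, with a mean of 88.7 ± 38.3 TPM (SD, n = 5). Its lowest library lay above the highest library of every other member. Cftr followed at 31.5 ± 16.2 TPM and Aqp5 at 22.3 ± 14.7 TPM (SD, n = 5 each). Their ranges overlapped, and Cftr was the higher of the pair in 4 of 5 libraries. The other 5 members were low: Aqp8 averaged 3.46 ± 1.93 TPM, Aqp11 3.42 ± 0.80 TPM, Aqp3 2.26 ± 1.29 TPM, Aqp9 1.99 ± 0.97 TPM and Aqp4 1.08 ± 0.56 TPM (SD, n = 5 each). Each of these overlapped its neighbours in the order. Aqp8 exceeded Aqp11 in 3 of 5 libraries, so their order is not separable from the spread. Aqp1 made up 60.2% to 90.2% of the summed TPM of the 7 aquaporins, and the 5 low genes together 7.19% to 15.1%.

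**Figure D1:**
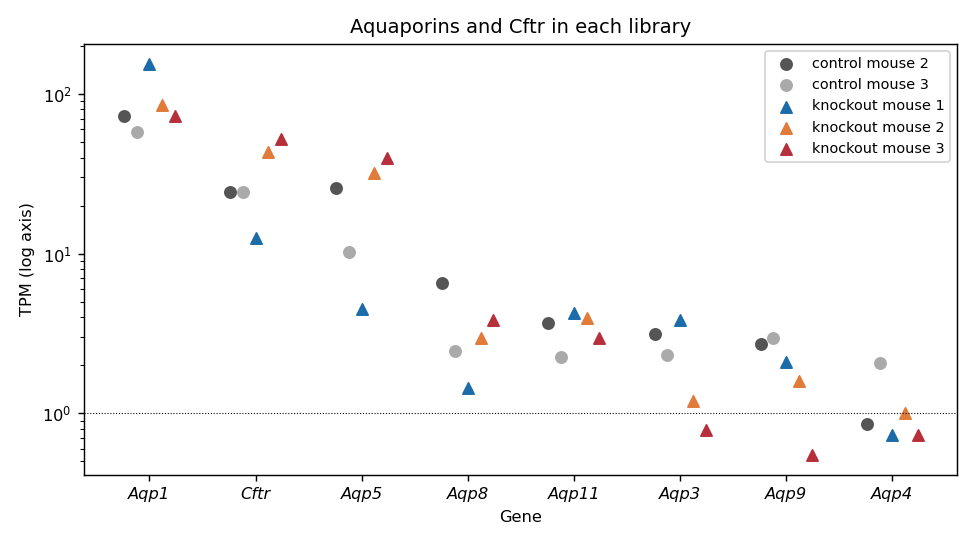
Level of each gene in TPM on a log axis, with 1 point per library (circles control, triangles labelled knockout) and a dotted line at 1 TPM. Aqp1 lies above the other 7 genes in each library, and knockout mouse 1 is the highest triangle for Aqp1 and the lowest for Cftr and Aqp5.

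None of the 8 genes passed the test between the groups. In limma on log2(TPM + 1) over 19292 genes, with Benjamini-Hochberg adjustment and a threshold of 0.05, 0 of 8 were called, against 0.0259% of all genes tested. At an unadjusted p under 0.05 the count was also 0 of 8, against 13.6% of all genes. The log2 fold change (knockout minus control, on the log2(TPM + 1) scale, which understates changes of low genes) was above 0 for 4 members and below 0 for 4. Its median was -0.11, beside -0.022 over all genes tested. The groups did not overlap for 1 member in the higher direction, Aqp1, where 11.9% of all genes did so, and for 1 in the lower direction, Aqp9, against 21.9%. With 2 and 3 libraries an exact two-sided permutation test over the 10 assignments cannot give a p under 0.1, and the smallest p among the members was 0.2.

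**Figure D2:**
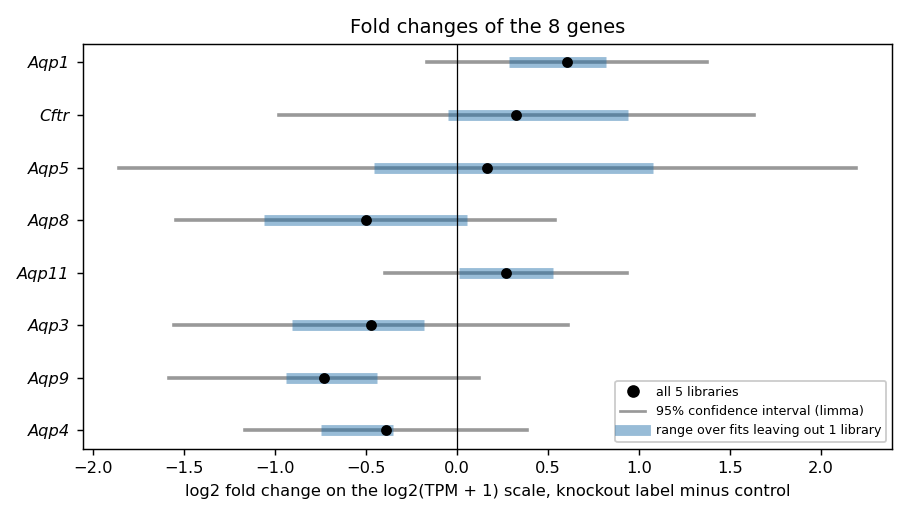
Log2 fold change of each gene on the log2(TPM + 1) scale (black point), with the 95% confidence interval from limma (grey line) and the range over the 5 fits that each leave out 1 library (blue bar; 3 of these fits for Aqp4). All 8 intervals include 0, and the blue bar crosses 0 for Cftr, Aqp5 and Aqp8.

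Aqp1 encodes the water channel known from capillary endothelium, red blood cells and kidney tubules. It lies at chr6:55336432-55348555 on the plus strand of GRCm38 (GENCODE M21), with 4 exons. It reached 72.6 and 57.7 TPM in control mice 2 and 3, against 155, 85.1 and 73.2 TPM in knockout mice 1, 2 and 3. All 3 knockout libraries were above both controls, but mouse 3 was above control mouse 2 by less than the controls differed from each other, and mouse 1 stood far above the rest. Controls averaged 65.1 ± 10.5 TPM (SD, n = 2) and knockout libraries 104 ± 44.2 TPM (SD, n = 3). For Aqp1 the log2 fold change was 0.60 ± 0.32 (SE) with a 95% confidence interval from -0.17 to 1.37 (limma, adjusted p 0.439, exact permutation p 0.2). Without knockout mouse 1 it was 0.28 (adjusted p 0.276). With an epithelial score, the mean log2 level of the epithelial markers, as a covariate it was 1.03 (adjusted p 0.0382) and passed, where 0.601% of all genes did.

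The summed endothelial markers did not follow the order of Aqp1 over the libraries. The 10 endothelial markers, led by Emcn, summed to 268 and 281 TPM in the controls, against 216, 306 and 183 TPM in knockout mice 1, 2 and 3. Knockout mouse 1, with the most Aqp1, thus had a lower endothelial sum than both controls. Of its 10 endothelial markers 6 were below both and 1 was above both. The share of all genes below both controls in a single library was not computed. In knockout mouse 1, Aqp1 amounted to 71.8 TPM per 100 TPM of endothelial markers, against 20.5 to 40.1 in the other 4 libraries. Of the 4 lymphatic endothelial markers, Flt4 and Prox1 were above both controls in all 3 knockout libraries, as Aqp1 and 11.9% of all genes tested were. Both were highest in mouse 2. Lyve1, the most abundant of the 4, overlapped the controls. It was at 34.4 and 25.7 TPM in control mice 2 and 3, against 21.8, 35.7 and 28.3 TPM in knockout mice 1, 2 and 3. Flt4, a receptor of lymphatic growth factors, was at 10.6 and 9.75 TPM in the controls, against 17.4, 26.9 and 16.7 TPM in knockout mice 1, 2 and 3. Ccl21a was listed at 0 in every library, and the sum of the 4, led by Lyve1, was 47.9 and 38.6 TPM in the controls, against 45.5, 71.5 and 50.6 TPM. Their part in the Aqp1 values was not tested. Among the 6 erythroid genes, the 4 globin genes were listed at 0 in every library, which does not show absence for genes with near-identical copies, and Alas2 was at 1.50 to 7.96 TPM, lowest in control mouse 2. The 5 mesothelial markers, led by Wt1, summed to 649 and 551 TPM in the controls, against 329, 445 and 468 TPM in the knockout libraries. Of these 5, 4 were below both controls in each knockout library, as 21.9% of all genes tested were. Wt1, at 141 and 146 TPM in the controls, was at 175, 218 and 223 TPM, above both. Bulk libraries cannot tell fewer cells of a type from less RNA per cell.

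Cftr lies at chr6:18170687-18322768 on the plus strand of GRCm38 (GENCODE M21), with 27 exons in its longest coding transcript. An antisense gene, Gm15592, overlaps 129 bases of its exons, and counting by strand is not stated in the sources used here. Cftr was at 24.5 and 24.3 TPM in control mice 2 and 3, against 12.6, 43.5 and 52.5 TPM in knockout mice 1, 2 and 3. The controls were almost equal, mouse 1 lay below them and mice 2 and 3 above them. Controls averaged 24.4 ± 0.14 TPM (SD, n = 2) and knockout libraries 36.2 ± 20.9 TPM (SD, n = 3). A log2 fold change of 0.33 ± 0.55 (SE) resulted, with an interval from -0.98 to 1.63 (limma, adjusted p 0.791, exact permutation p 0.9). Without knockout mouse 1 it was 0.94 ± 0.14 (SE; limma, adjusted p 0.0253), and Cftr passed, as did 7.98% of all genes in that fit. Without knockout mouse 3 it was -0.048 (adjusted p 0.993). The fit without mouse 1 kept knockout mice 2 and 3, with Esr1 at 85.0 and 170 TPM, against 83.3 and 77.6 TPM in the controls.

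Aqp5, the water channel of the apical membrane in many glands, had a like order among the knockout libraries. It lies at chr15:99590782-99594829 on the plus strand of GRCm38 (GENCODE M21). It stood at 25.6 and 10.2 TPM in control mice 2 and 3, against 4.50, 31.9 and 39.4 TPM in knockout mice 1, 2 and 3. Mouse 1 was again below both controls and mice 2 and 3 above both, but here the controls themselves differed by more than a factor of 2. Controls averaged 17.9 ± 10.9 TPM (SD, n = 2) and knockout libraries 25.3 ± 18.4 TPM (SD, n = 3). For Aqp5 the log2 fold change was 0.17 ± 0.85 (SE) with an interval from -1.86 to 2.19 (limma, adjusted p 0.935, exact permutation p 0.9). It was 1.08 without knockout mouse 1 (adjusted p 0.138), -0.46 without control mouse 3, -0.21 without knockout mouse 2 and -0.36 without knockout mouse 3. Aqp5 was 1.05 and 0.42 times the Cftr level in control mice 2 and 3 and 0.36, 0.73 and 0.75 times it in knockout mice 1, 2 and 3.

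Among the knockout libraries the epithelial sum had the same order as both genes. Between the controls it did not follow Aqp5. Control mouse 3 had less Aqp5 than control mouse 2, at 10.2 against 25.6 TPM, but a higher epithelial sum, at 3304 against 3019 TPM. In knockout mouse 1, 7 of 11 epithelial markers were below both controls and 0 above. In each of mice 2 and 3, 9 of 11 were above both, and 1 in mouse 2 and 2 in mouse 3 were below both. The share of all genes above or below both controls in a single library was not computed. None of the 11 was at 0 in any library. The 8 ciliated markers, led by Tppp3, summed to 413 and 467 TPM in control mice 2 and 3. Their sums were 426, 653 and 626 TPM in knockout mice 1, 2 and 3, with mouse 1 between the controls. Relative to the epithelial sum, which Ovgp1 dominates, Cftr was at 8.11 and 7.35 TPM per 1000 TPM in the controls and at 5.89, 3.62 and 3.98 in knockout mice 1, 2 and 3. Without Ovgp1 in the sum it was at 32.8 and 28.9 in the controls and at 20.5, 32.1 and 27.3 in the knockout libraries. With Ovgp1 in the sum all 3 knockout libraries were thus below both controls, with mouse 1 the highest of the 3. Without it mouse 1 was the lowest and mouse 2 lay between the controls. For Aqp5 the values with Ovgp1 in the sum were 8.48 and 3.10 in the controls and 2.11, 2.66 and 2.99 in the knockout libraries, all 3 below both controls. The Aqp5 values without Ovgp1 were 34.3 and 12.2 in the controls and 7.35, 23.6 and 20.5 in the knockout libraries, with mice 2 and 3 between the controls. When the epithelial score entered the fit as a covariate, the log2 fold change of Cftr was -0.45 (limma, adjusted p 0.426) and that of Aqp5 -0.89 (adjusted p 0.583). Neither passed, as neither did over all 5 libraries without the covariate. The part of epithelial RNA in these values was not tested beyond the covariate fit.

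**Figure D3:**
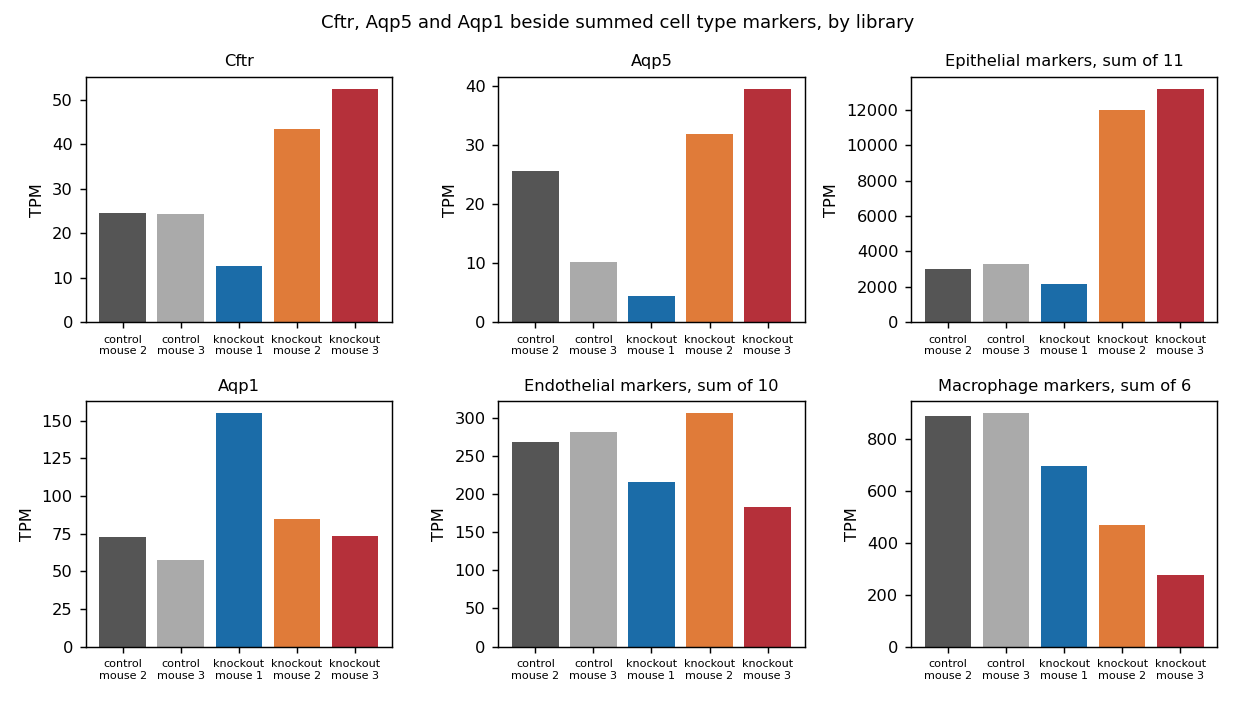
TPM of Cftr, Aqp5 and Aqp1 and summed TPM of epithelial, endothelial and macrophage markers, with 1 bar per library and each axis starting at 0. Cftr, Aqp5 and the epithelial sum are lowest in knockout mouse 1 and highest in mouse 3, whereas Aqp1 is highest in mouse 1.

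Aqp9 and Aqp3 encode channels that pass glycerol as well as water, and Aqp9 (chr9:71110659-71168682, minus strand, GRCm38, GENCODE M21) is known from liver and white blood cells. Aqp9 was at 2.72 and 2.98 TPM in control mice 2 and 3, against 2.09, 1.60 and 0.55 TPM in knockout mice 1, 2 and 3, about 13 to 96 reads per library. All 3 knockout libraries lay below both controls. On the log2 scale the difference was -0.73 ± 0.36 (SE) with an interval from -1.58 to 0.12 (limma, adjusted p 0.413, exact permutation p 0.2). It stayed below 0 in each of the 16 alternative fits that gave a value, from -1.14 to -0.28. The signs of Aqp1 and Aqp11 did not change over their alternative fits either. These fits reuse the same libraries and are not independent. Macrophage and neutrophil markers had lower sums in the knockout libraries as well. The 6 macrophage markers, led by C1qb, summed to 891 and 901 TPM in the controls, against 698, 470 and 278 TPM in knockout mice 1, 2 and 3. All 6 were below both controls in each, as 21.9% of all genes tested were. The 6 neutrophil markers, led by S100a8, summed to 255 and 387 TPM in the controls, against 54.1, 133 and 38.9 TPM in the knockout libraries. Of these 6 markers, 5, 4 and 6 were below both controls in knockout mice 1, 2 and 3, and none of them was at 0. The share of all genes below both controls in a single library was not computed. The part of macrophage and neutrophil RNA in the Aqp9 values was not tested.

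Aqp3 was at 3.13 and 2.32 TPM in control mice 2 and 3, against 3.86, 1.19 and 0.78 TPM in knockout mice 1, 2 and 3. Mouse 1 lay above both controls and mice 2 and 3 below both, the reverse of the order of Cftr. The gene lies at chr4:41092722-41098183 on the minus strand (GRCm38, GENCODE M21). Between the groups the log2 difference was -0.47 ± 0.46 (SE) (limma, adjusted p 0.632). It was -0.91 without knockout mouse 1 (adjusted p 0.139), and 0.096 with the epithelial score as a covariate (adjusted p 0.939).

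Aqp8, at chr7:123462291-123468004 on the plus strand (GRCm38, GENCODE M21), passes water and small molecules such as hydrogen peroxide. It stood at 6.53 and 2.47 TPM in control mice 2 and 3, against 1.43, 2.98 and 3.86 TPM in knockout mice 1, 2 and 3. Only control mouse 2 was above the knockout range. The fitted log2 difference of -0.50 ± 0.44 (SE; limma, adjusted p 0.601) moved to 0.057 when control mouse 2 was left out, to -0.22 when knockout mouse 1 was, and to -1.06 when control mouse 3 was (adjusted p 0.909).

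Aqp11 (gene at chr7:97724006-97738289, minus strand, GRCm38, GENCODE M21) encodes a channel that lies in the membrane of the endoplasmic reticulum and is the least typical of the family in sequence. It was at 3.66 and 2.26 TPM in control mice 2 and 3, against 4.25, 3.94 and 2.98 TPM in knockout mice 1, 2 and 3. It had the smallest spread relative to its mean of the 8 genes, and mouse 3 lay between the controls. For Aqp11 the log2 fold change was 0.27 ± 0.28 (SE) with an interval from -0.40 to 0.93 (limma, adjusted p 0.662). It was 0.0096 without control mouse 3, 0.52 without control mouse 2 and 0.58 after quantile normalization.

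Aqp4, known from the end-feet of astrocytes in brain, was at the lowest level. It was at 0.86 and 2.06 TPM in control mice 2 and 3, against 0.73, 1.01 and 0.73 TPM in knockout mice 1, 2 and 3, about 24 to 92 reads per library. It reached 1 TPM in control mouse 3 and knockout mouse 2 alone, and so just met the filter for testing. Its log2 difference was -0.39 ± 0.33 (SE) (limma, adjusted p 0.585), and it was 0.14 after quantile normalization and -0.75 without control mouse 2.

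The other genes of water and ion transport were taken from a list of 44, all of which were tested. In limma 0 of 44 had an adjusted p under 0.05, and 1 higher (3.70% of all genes) and 3 lower (9.87%) had an unadjusted p under 0.05. Their median log2 fold change was -0.067, with 19 above 0 and 25 below, and the groups did not overlap for 3 of 44 in the higher direction (11.9% of all genes) and 11 of 44 in the lower (21.9%). The other aquaporins, Mip, Aqp2, Aqp6, Aqp7 and Aqp12, were as low as the low members, with means of 0.87 to 2.53 TPM. Aqp7, a glycerol channel of fat cells, was at 7.01 TPM in knockout mouse 1 and at 0.55 to 1.83 TPM elsewhere. The 4 adipocyte markers summed to 6.08 TPM in that library, within their range of 4.83 to 11.1 TPM in the other 4.

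The list genes with the smallest p and a mean of at least 5 TPM did not pass in limma. In the higher direction these were Prkaca, a catalytic subunit of the cAMP-dependent kinase that opens CFTR (log2 fold change 0.43, adjusted p 0.367), Car2, a carbonic anhydrase (1.11, adjusted p 0.391), and Stk39, a kinase that acts on chloride cotransporters (1.00, adjusted p 0.408). Prkaca was above both controls in all 3 knockout libraries, at 57.9 and 60.1 TPM in control mice 2 and 3, against 69.1, 78.6 and 93.6 TPM in knockout mice 1, 2 and 3. Car2 was at 10.4 and 10.9 TPM in the controls, against 10.9, 29.2 and 43.6 TPM in the knockout libraries, with mouse 1 at the control level. In the lower direction these were Trpv4, an osmosensitive cation channel (-0.76, adjusted p 0.318), Sgk1, a kinase that raises sodium channel activity (-0.42, adjusted p 0.332), and Car12, another carbonic anhydrase (-1.22, adjusted p 0.427). Sgk1 was at 88.2 and 89.6 TPM in the controls, against 66.7, 71.1 and 61.2 TPM in the knockout libraries, below both controls in each. Car12 was at 45.3 and 14.5 TPM in the controls, against 4.73, 11.6 and 20.0 TPM in the knockout libraries. Its groups overlapped, with knockout mouse 3 above control mouse 3. Car4, with a mean below 5 TPM and named after its values were seen, had the smallest p of the list (log2 fold change -1.18, adjusted p 0.226).

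Without knockout mouse 1, 6 of the 42 list genes then tested passed, all higher (5.35% of all genes in that fit were called higher). They were Stk39, Car2, Kcne3, a subunit of epithelial potassium channels, Slc4a4, a sodium bicarbonate cotransporter, Ezr, which links membrane proteins to actin, and Slc9a3r1, the scaffold that binds CFTR. Their log2 fold changes in that fit ranged from 0.95 for Slc9a3r1 to 1.66 for Car2. In knockout mice 2 and 3, the libraries left in that fit, 9 of the 11 epithelial markers were above both controls as well. Below both controls were 1 in mouse 2 and 2 in mouse 3. Esr1 was at 85.0 and 170 TPM in knockout mice 2 and 3, against 83.3 and 77.6 TPM in the controls. Over all 5 libraries none of the 6 passed without the epithelial score as a covariate (limma, adjusted p 0.391 to 0.690). None passed with it either (limma, adjusted p 0.267 to 0.954). Their log2 fold changes ran from 0.49 for Slc9a3r1 to 1.11 for Car2 without it, and from -0.43 for Kcne3 to 0.41 for Car2 with it. The part of epithelial RNA in the calls without mouse 1 was not tested. Kcne3 was at 39.7 and 55.0 TPM in control mice 2 and 3, against 23.0, 108 and 156 TPM in knockout mice 1, 2 and 3, low in mouse 1 and high in mice 2 and 3 as Cftr was. Slc12a2, the cotransporter that loads chloride into secretory cells, was at 53.8 and 47.0 TPM in the controls, against 23.0, 68.3 and 72.8 TPM in the knockout libraries, and its log2 fold change of 0.48 without mouse 1 did not pass (adjusted p 0.0730). Ano1, the calcium-activated chloride channel, was at 118 and 98.0 TPM in the controls, against 130, 146 and 135 TPM in the knockout libraries. It lay above both controls in all 3, with a log2 fold change of 0.34 in all 5 libraries (adjusted p 0.410).

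**Figure D4:**
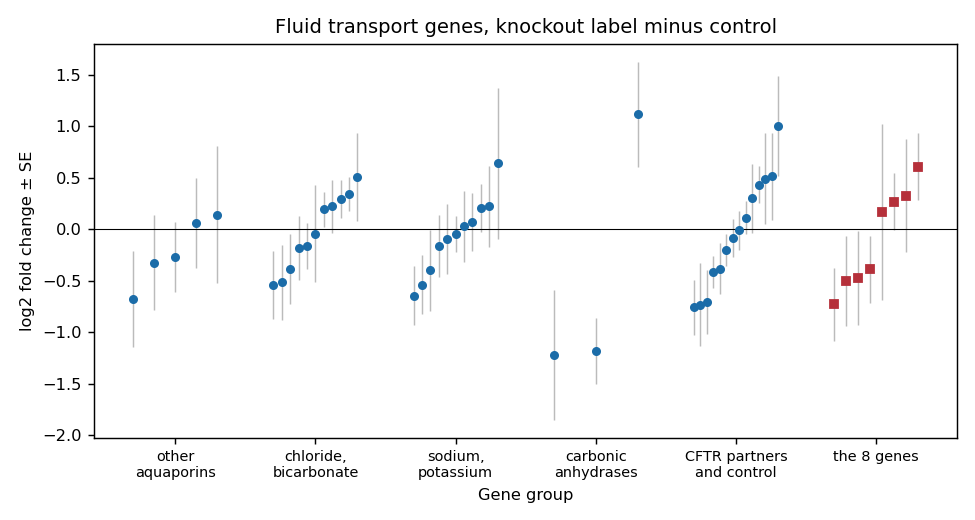
Log2 fold change with its standard error for the 44 fluid transport genes by group (blue circles) and for the 8 members (red squares), knockout label minus control on the log2(TPM + 1) scale. Points lie on both sides of 0 in each group, and none passed the test over all genes.

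Genes with the most similar pattern were found for the 3 members with a mean of at least 5 TPM. Likeness was the root mean square difference of log2(TPM + 1) values, each gene centred on its own mean over the 5 libraries, among 12112 other genes. It is a description with no p-value, because a search over that many genes and 5 libraries can return near matches by itself. Nearest to Cftr were Fut2 (difference 0.043), F2rl1 (0.11) and Slc4a8 (0.12). Fut2, a fucosyltransferase of secretory epithelia, was at 9.24 and 8.77 TPM in the controls, against 4.03, 16.2 and 20.5 TPM in knockout mice 1, 2 and 3. Nearest to Aqp5 were Tmod1 (0.073), Adh7 (0.24) and Ms4a18 (0.27), with Tmod1 at 25.8 and 10.4 TPM in the controls, against 4.53, 36.6 and 42.5 TPM in the knockout libraries. Nearest to Aqp1 were Capn6 (0.086), Suox (0.098) and Susd2 (0.099), and Susd2 was at 19.8 and 15.8 TPM in the controls, against 37.2, 23.8 and 21.1 TPM in the knockout libraries. The difference between Cftr and Aqp5 was 0.51, with 38 genes nearer to Aqp5 than Cftr was and 2316 genes nearer to Cftr than Aqp5 was. Aqp1 was far from both, at 1.05 from Cftr and 1.41 from Aqp5.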

How the data were processed

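The deposited table holds TPM per gene for 5 libraries, 1 column per mouse. Per the labels, total RNA of sorted cells went into a low-input SMARTer library kit, the table's name gives STAR, and mm10 (GRCm38) is the build per the submitters' processing notes. The gene counter, annotation and read filters are not given in the sources used here. Every deposited column of the authors' TPM added up to 1000000. Rpph1 alone held 18.6% and 21.3% of that sum in control mice 2 and 3. Its share was 22.3%, 14.3% and 13.1% in knockout mice 1, 2 and 3. TPM keeps no total depth, so depth was estimated from the steps of low values (tested on simulated data): 1 TPM in 1 kb of transcript was worth 6.43 to 13.3 reads. Reads per gene use the longest coding transcript, are approximate and are not independent molecules.

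Values were fitted as log2(TPM + 1) with limma 3.58.1 in R 4.3.3 (trended eBayes, genotype as the only term) for genes with at least 1 TPM in at least 2 libraries, and all 8 members passed that filter. P-values are two-sided and adjusted over all genes tested. Each library is 1 mouse, so the spread is between mice. Python 3.11.15 was used for depth, annotation and motifs. GENCODE M21 held 96.6% and RefSeq 99.2% of the symbols. The named genes were the members, Esr1, Pdgfra, for each direction the 3 transport list genes of smallest p at a mean TPM of at least 5, and the 3 genes most like each member at that level. Aqp7, Car4, Slc12a2, Ano1, the single lymphatic markers Flt4 and Prox1, and the 6 genes that passed without knockout mouse 1 were chosen after their values were seen, apart from Car2 and Stk39, which the rule also names. Pdgfra was at 225 and 188 TPM in control mice 2 and 3, against 298, 231 and 165 TPM in knockout mice 1, 2 and 3. The other marker lists summed to 300 to 487 TPM (5 smooth muscle genes) and 7.53 to 12.1 TPM (4 glial). The members, lists and alternatives were chosen with earlier results of these data known.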

Additional observations from a re-analysis of the deposited data

How the results depend on the processing

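Over the 8 genes, 128 alternative values were computed: 116 had the same sign and the same call, 9 changed sign and 3 newly passed. The sign changes were Aqp4 with quantile normalization (0.14), Aqp3, Aqp5 and Cftr with the epithelial covariate (0.096, -0.89 and -0.45), Aqp8 without control mouse 2 (0.057), Aqp5 without control mouse 3 (-0.46), knockout mouse 2 (-0.21) or knockout mouse 3 (-0.36), and Cftr without knockout mouse 3 (-0.048). Over the 5 fits without 1 library each, Aqp5 ran from -0.46 to 1.08 and Aqp8 from -1.06 to 0.057. The cause was not tested. The 5 low members had no value under a mean TPM of at least 5, nor did Aqp4 with median-of-ratios scaling or without control mouse 3 or knockout mouse 2. With Rpph1 and Rn45s left out of the TPM, the log2 fold change was 0.55 for Aqp1 and 0.27 for Cftr, and neither passed.

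The number of members passing was 0 in all 5 libraries, 1 with the epithelial covariate (Aqp1) and 0 to 1 over the fits without 1 library each, where the 1 was Cftr without knockout mouse 1. For the 44 transport genes it was 0, and 0 to 6 over those fits, with the 6 again without knockout mouse 1. A fit without a control mouse assumes that the lone control varies like the knockout libraries. Among all tested genes, 5 passed, and 7 with Rpph1 and Rn45s left out of the TPM. The limma count was 0 with a pseudocount of 0.1 and 0 for genes averaging at least 5 TPM (2233 and 1389 genes had an unadjusted p under 0.05), 3 with no filter and with robust eBayes, 2 with median-of-ratios scaling and with eBayes without trend, 116 with the epithelial covariate and 656 with library weights. Without 1 library each it ran from 0 to 1524, the latter without knockout mouse 1. Genes with an unadjusted p under 0.05 split into 713 higher and 1904 lower, against 1195 and 1378 with quantile normalization and 1289 and 1711 with median-of-ratios scaling.

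With the mouse number as a replicate block, 1858 genes passed among all tested, 1 member (Cftr, log2 fold change 0.94) and 6 transport genes. Knockout mouse 1 has no partner, so that fit rests on mice 2 and 3. Across genes, same-numbered libraries deviated from their group means with correlations of -0.060 (mouse 2) and -0.072 (mouse 3). With 2 controls their deviations are equal and opposite, so these values cannot show whether the libraries share more than a number. Depth limits the low members, with about 12 reads behind Aqp3 and 13 behind Aqp9 in knockout mouse 3.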
